A study of Bos taurus and Bos grunniens and Bubalus bubalis with 15 samples.

Results

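Solute carriers are membrane proteins that move sugars, amino acids, nucleotides, metals and other small solutes. The genes described were those whose single platform symbol is that of a member of a solute carrier family, apart from a member left out by the selection rule. Each was read by its brightest probe set over the 15 arrays. The platform annotation gave 233 such probe sets for 164 genes of 41 families, and 110 genes of 38 families were bright enough to be tested among 14409 probe sets. The other 54 genes were dimmer on average than the limit set at the 40th percentile of all probe sets (6.42 on the log2 scale with 16 added) and are not described as changed or unchanged. SLC2A1, at 6.4243, SLC11A1, at 6.4314, and SLC6A6, at 6.4801, lay just above that limit. SLC17A2, at 6.3443, SLC2A2, at 6.2883, and SLC30A2, at 6.2706, lay just below it. A pair of the tested genes, SLC4A1AP and SLC7A6OS, match by symbol but are not carriers: SLC4A1AP encodes an adaptor protein and SLC7A6OS lies opposite SLC7A6.

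The study took back muscle (longissimus dorsi) from Guangxi buffalo, Qinghai yak and Qinchuan cattle, all slaughtered at 36 months of age, and read 1 Affymetrix bovine array per sample. There were 3 buffalo, 3 yak and 9 cattle, the cattle being 3 females, 3 castrated males and 3 intact males born close together and reared alike. The sources used here state neither the sex of the yak and buffalo nor the age at castration, and the labels describe each array as a biological replicate. Species comparisons therefore set yak or buffalo against cattle as the mean of the 3 cattle groups, and join sex, breed, rearing and species, which cannot be told apart.

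Most solute carriers of the cell surface either let a solute run down its gradient, as the GLUT glucose carriers of family SLC2 do, or couple it to sodium, protons or another solute. The SLC25 family sits in the inner mitochondrial membrane and carries ADP, ATP, phosphate, citrate, amino acids and other metabolites between cytosol and matrix. In skeletal muscle, GLUT4 (SLC2A4) carries glucose in after insulin or contraction, the monocarboxylate carriers of SLC16 move lactate, SLC22A5 brings in carnitine and SLC6A8 brings in creatine.

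Median log2 intensities differed little between arrays, at 6.71 to 6.81. The 8 measured skeletal muscle markers summed to between 90786 and 119228 intensity units on every array, and no marker of any list was at 0. Intact male 1 stood apart, correlating on average at 0.931 with the other intact males, and intact male 3 at 0.945 with the other intact males and at 0.960 with females and castrated males. The 3′ to 5′ ratio of the actin control probe sets, which rises as RNA breaks down, was 1.42 to 1.73 in buffalo, 1.49 to 1.93 in yak and 1.17 to 1.48 in cattle. The probes were designed on cattle transcripts, so every species difference joins a difference in RNA level with any difference in binding, which was not tested. Muscle is a mixture of cells, and in it a smaller number of cells of a type and less RNA per cell cannot be told apart.

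Across the 5 groups, 64 of the 110 solute carrier genes differed by limma's moderated F test at an adjusted p under 0.05, or 58.2% against 63.0% of all probe sets. Buffalo differed from cattle in 54 genes (49.1% against 51.4%), of which 33 were higher (30.0% against 23.0%) and 21 lower (19.1% against 28.4%). Yak differed from cattle in 25 genes (22.7% against 29.1%), of which 12 were higher (against 13.2%) and 13 lower (against 15.9%). That split was 13 and 8 after quantile normalisation and 13 and 9 after median centring. Buffalo differed from yak in 46 genes (41.8% against 42.2%), of which 28 were higher (against 19.5%) and 18 lower (against 22.7%). Shares of solute carriers called were thus near or below the share of all probe sets in every species comparison, with the buffalo calls more often upward. Among cattle, females differed from intact males in 8 genes (7.27% against 5.50%), 1 higher (against 2.12%) and 7 lower (against 3.37%). By its brightest probe set no gene passed between castrated and intact males (against 1.46%) or between females and castrated males (against 0.0208%), though a dimmer probe set of SLC52A2 passed between castrated and intact males. The 2 comparisons with cattle share the cattle arrays, and those with buffalo share the buffalo arrays, so their results are not independent of each other.

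**Figure D1:**
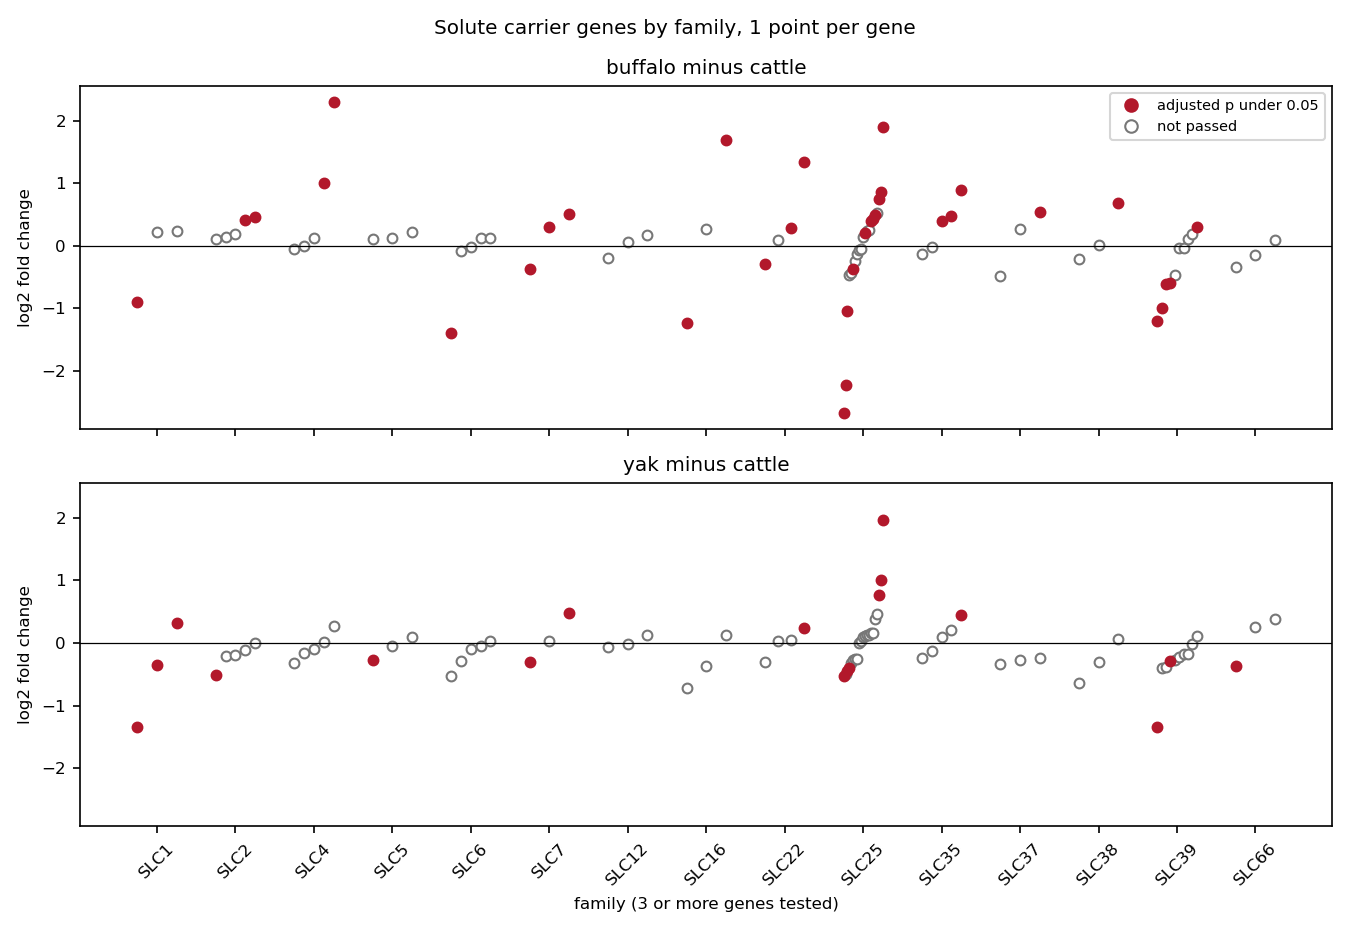
Log2 fold change of each tested solute carrier gene in the families with 3 or more genes tested, for buffalo minus cattle (upper panel) and yak minus cattle (lower panel). Filled points passed the test (adjusted p under 0.05) and open points did not. In buffalo SLC4A7 lies highest, at 2.30, and SLC25A34 lowest, at -2.68, and in yak SLC25A33 lies highest, at 1.96.

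The mitochondrial carriers of SLC25 were the largest family, with 21 of 27 genes tested. In buffalo, 7 were higher and 4 lower than in cattle, or 52.4% called against 51.4% of all probe sets (23.0% higher and 28.4% lower), and the family ran between -2.68 and 1.90 with a median log2 fold change of 0.14, against -0.03 over all probe sets. In yak, 3 were higher and 3 lower than in cattle, or 28.6% called against 29.1%, with a median of 0.09 against -0.02. Against yak, buffalo had 3 lower and 0 higher, or 14.3% called against 42.2%.

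SLC25A33, the mitochondrial carrier of pyrimidine nucleotides, was the carrier most raised in yak. Its intensity was 1193, 1195 and 1044 in buffalo and 1862, 1011 and 900.0 in yak, against 157 to 442 (median 339) on the 9 cattle arrays. Every buffalo and yak array lay above every cattle array. The gene was 3.73-fold higher in buffalo (log2 fold change 1.90 ± 0.19, adjusted p = 3.46e-06) and 3.89-fold higher in yak (log2 fold change 1.96 ± 0.19, adjusted p = 1.69e-05). Buffalo and yak overlapped (log2 fold change -0.06 ± 0.23, adjusted p = 0.848). Its second probe set read 325, 327 and 223 in buffalo and 695, 361 and 288 in yak, against 63.4 to 148 in cattle, and passed in both comparisons at log2 fold change 1.36, adjusted p = 1.20e-04 for buffalo and log2 fold change 1.88, adjusted p = 4.50e-05 for yak. Within cattle it was 157, 212 and 219.8 in females, 442, 353 and 299 in castrated males and 359.7, 339 and 393 in intact males, so that all females lay below all males. It fell in females relative to intact males (log2 fold change -0.85 ± 0.18, adjusted p = 0.0331), while the difference from castrated males was as large and did not pass (log2 fold change -0.84 ± 0.18, adjusted p = 0.342).

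SLC25A38 and SLC25A28, which serve haem and iron in mitochondria, were also higher in both species. SLC25A38, which brings glycine in for haem synthesis, read 411, 221 and 250.0 in buffalo and 493, 329 and 243 in yak, against 135 to 213 (median 159) on the 9 cattle arrays. It rose in yak (log2 fold change 1.01 ± 0.20, adjusted p = 0.0022) and in buffalo (log2 fold change 0.75 ± 0.20, adjusted p = 0.00569). SLC25A28, mitoferrin 2, which brings iron in, read 443, 417 and 446 in buffalo and 636, 509.7 and 464 in yak, against 221 to 389 (median 303) on the 9 cattle arrays. Neither gene's buffalo or yak arrays overlapped the cattle arrays, and SLC25A28 rose in yak (log2 fold change 0.77 ± 0.14, adjusted p = 0.0016) and in buffalo (log2 fold change 0.49 ± 0.14, adjusted p = 0.0109). The other mitoferrin, SLC25A37, had a log2 fold change of -0.13 (adjusted p = 0.416) in buffalo and 0.16 (adjusted p = 0.367) in yak. The buffalo call of SLC25A38 was lost without buffalo 1 (adjusted p = 0.0503).

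The ADP/ATP carriers did not move together. SLC25A4, the main form of heart and skeletal muscle, read 10461, 11049 and 11763 in buffalo and 9770.0, 10132 and 10447 in yak, against 6529 to 12734 (median 10173) on the 9 cattle arrays, and passed in no comparison. SLC25A6 read 235, 262 and 235 in buffalo and 878, 1084 and 923 in yak, against 731 to 2826 (median 1021) on the 9 cattle arrays. All buffalo arrays lay below all others, at log2 fold change -2.23 ± 0.19, adjusted p = 9.95e-07 against cattle and log2 fold change -1.91 ± 0.24, adjusted p = 3.62e-05 against yak. The 2 other tested probe sets of SLC25A6 did not show this. The first read 216, 194 and 189 in buffalo and 163, 188 and 170.4 in yak (log2 fold change 0.14, adjusted p = 0.575 for buffalo minus cattle). The other read 80.6, 201 and 161 in buffalo and 65.1, 66.4 and 65.9 in yak, and was higher in buffalo than in yak (log2 fold change 0.92, adjusted p = 0.00751). The probe sets of this gene thus disagree between species, and with their mean the buffalo minus yak call was lost (adjusted p = 0.299). The ADP/ATP carriers are close relatives, and whether a probe set binds more than 1 of them was not tested. SLC25A5, the third, read 612, 722 and 499 in yak, against 592 to 1474 (median 839) on the 9 cattle arrays. It fell in yak (log2 fold change -0.52 ± 0.18, adjusted p = 0.0462), with overlap, and the call was lost without intact male 1 or 2, castrated male 1 or 2, female 2 or 3, any 1 yak array or any 1 buffalo array (adjusted p 0.0522 to 0.201) and under median centring (adjusted p = 0.059), with no filter (adjusted p = 0.0535), with the mean of all its probe sets (adjusted p = 0.114) and with cattle as castrated males and females (adjusted p = 0.23).

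SLC25A34, a mitochondrial carrier whose solute is not settled, was the carrier most lowered in buffalo. It read 441, 149.7 and 219 in buffalo, 1051, 969.7 and 1534 in yak and 756 to 2632 (median 1973) on the 9 cattle arrays. All buffalo arrays lay below all others (6.39-fold lower than cattle, log2 fold change -2.68 ± 0.36, adjusted p = 4.01e-05, and log2 fold change -2.17 ± 0.44, adjusted p = 0.00147 against yak). A dimmer probe set of the gene was lower in buffalo too but did not pass (log2 fold change -0.39, adjusted p = 0.128). SLC25A1, which exports citrate for lipid synthesis, read 148, 171 and 174 in buffalo, 247, 336 and 316 in yak and 275 to 474 (median 361) on the 9 cattle arrays. It too was lower on every buffalo array than on any other, at log2 fold change -1.05 ± 0.15, adjusted p = 5.85e-05 against cattle and log2 fold change -0.80 ± 0.18, adjusted p = 0.00302 against yak.

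Of the malate and aspartate shuttle, SLC25A12, an aspartate and glutamate exchanger, read 2359.5, 1283 and 1451 in buffalo, against 378 to 1513 (median 1002) on the 9 cattle arrays. It was higher in buffalo (log2 fold change 0.86 ± 0.33, adjusted p = 0.0402) with overlap, and the call was lost without castrated male 1 or 2, female 1 or 2, yak 3 or buffalo 1 or 3 (adjusted p 0.0506 to 0.202) and with the mean of all its probe sets (adjusted p = 0.0862) and with cattle as castrated males and females (adjusted p = 0.0694). The oxoglutarate and malate carrier SLC25A11 was higher in buffalo as well, at 0.43 (adjusted p = 0.0495), close to the threshold. Its call was not followed through the left-out arrays and scalings. SLC25A20, which exchanges acylcarnitine for carnitine in fat oxidation, had 0.24 (adjusted p = 0.311) in buffalo and 0.03 (adjusted p = 0.931) in yak. The phosphate carrier SLC25A3 had -0.04 (adjusted p = 0.746) in buffalo and 0.09 (adjusted p = 0.559) in yak, with 5593 to 5775 intensity units in buffalo, 5698 to 6564 in yak and 5068 to 7276 in cattle. SLC25A16 was lower in buffalo, at -0.38 (adjusted p = 0.012), and in yak, at -0.44 (adjusted p = 0.00969), and SLC25A44, a carrier of branched-chain amino acids, was lower in yak, at -0.40 (adjusted p = 0.0331). The yak call of SLC25A16 was lost without yak 2 (adjusted p = 0.0631), and that of SLC25A44 without castrated male 2 or 3, female 3 or yak 1 or 2 (adjusted p 0.0515 to 0.201) and under quantile normalisation (adjusted p = 0.0684).

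**Figure D2:**
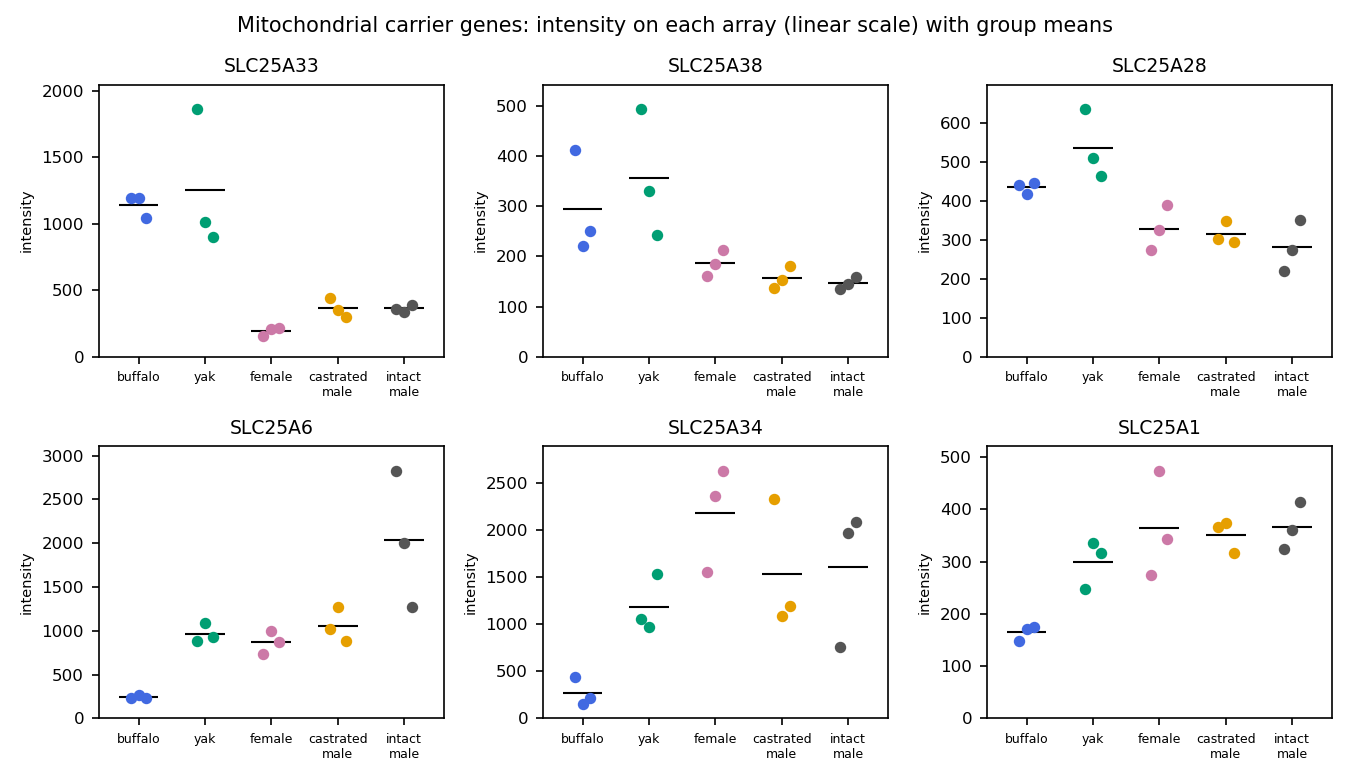
Intensity (linear scale) of 6 mitochondrial carrier genes on each of the 15 arrays, with points for arrays and a bar for the mean of each group of 3. SLC25A33, SLC25A38 and SLC25A28 lie above all cattle arrays in buffalo and yak, while SLC25A6, SLC25A34 and SLC25A1 are lowest in buffalo.

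Among 11 tested partners of these carriers in the mitochondrial membranes, 2 were higher and 3 lower in buffalo than in cattle. The shares over all probe sets were 23.0% and 28.4%. In yak, 1 was higher and 1 lower (13.2% and 15.9%). UCP2, an uncoupling protein that is itself a mitochondrial carrier, was higher in yak, at a log2 fold change of 0.99 (adjusted p = 0.00113), and lower in buffalo, at -0.58 (adjusted p = 0.013). The channel gene VDAC3 and the import gene TIMM23 were lower in buffalo, at -0.51 (adjusted p = 0.00216) and -0.58 (adjusted p = 0.00176).

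Of the glucose carriers of SLC2, 5 of 7 genes were tested. In buffalo 2 of them were higher and 0 lower than in cattle, or 40% called against 51.4% of all probe sets. In yak, 1 was lower and 0 higher, or 20% against 29.1%. Against yak, buffalo had 3 higher and 0 lower, or 60% against 42.2%. The family median there was 0.39, against 0.01 over all probe sets. SLC2A4, GLUT4, read 268, 406 and 293 in buffalo, 150.1, 152 and 160.4 in yak and 149 to 327 (median 222) on the 9 cattle arrays. Every buffalo array lay above every yak array, and both species overlapped cattle. GLUT4 was 1.96-fold higher in buffalo than in yak (log2 fold change 0.97 ± 0.21, adjusted p = 0.00256), higher in buffalo than in cattle (log2 fold change 0.46 ± 0.17, adjusted p = 0.0391) and lower in yak than in cattle (log2 fold change -0.51 ± 0.17, adjusted p = 0.0408). The yak call was lost without intact male 2, castrated male 1 or 2, any 1 female array or any 1 yak array (adjusted p 0.0565 to 0.133). It was also lost under quantile normalisation (adjusted p = 0.0818), under median centring (adjusted p = 0.061) and with cattle as castrated males and females (adjusted p = 0.0578). The buffalo call against cattle was not followed through the left-out arrays and scalings.

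Within cattle, GLUT4 read 221, 208 and 213 in females, 273, 238 and 222 in castrated males and 149, 224 and 327 in intact males, the intact males spanning both other groups. SLC2A8, a glucose carrier of intracellular membranes, read 167, 186 and 229 in buffalo, 137, 131 and 119 in yak and 114 to 170.0 (median 144) on the 9 cattle arrays. It was higher in buffalo than in cattle (log2 fold change 0.41 ± 0.12, adjusted p = 0.0111) and than in yak (log2 fold change 0.52 ± 0.15, adjusted p = 0.0115). The fructose carrier SLC2A5 passed for buffalo minus yak, at 0.32 (adjusted p = 0.0445), and had 0.11 (adjusted p = 0.358) for buffalo minus cattle. Its dimmer probe set passed in both, at log2 fold change 0.46, adjusted p = 8.22e-04 for buffalo minus cattle. SLC2A1, the widespread GLUT1, had 0.19 (adjusted p = 0.475) in buffalo and -0.20 (adjusted p = 0.514) in yak, and SLC2A6 had 0.14 (adjusted p = 0.213) in buffalo and -0.0042 (adjusted p = 0.979) in yak.

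Of 8 tested genes that control glucose uptake, 3 were lower and 0 higher in yak than in cattle (15.9% and 13.2% over all probe sets). In buffalo, 3 were lower and 2 higher (28.4% and 23.0%). TBC1D4, which holds GLUT4 inside the cell until insulin acts, averaged 182 ± 43.5 in buffalo and 462 ± 97.4 in yak, against 797 ± 119.6 in females, 607 ± 76.9 in castrated males and 559 ± 98.0 in intact males (SD, n = 3 each), and its log2 fold change was -1.75 (adjusted p = 2.51e-06) in buffalo and -0.48 (adjusted p = 0.0483) in yak. HK1, a hexokinase that traps glucose, was lower in yak, at -0.67 (adjusted p = 0.024), and in females relative to intact males, at -1.04 (adjusted p = 0.0341). RAC1 was lower, at -1.54 (adjusted p = 2.13e-07), and PPARGC1A, a regulator of mitochondrial genes, higher, at 1.33 (adjusted p = 1.33e-04), in buffalo.

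By their brightest probe sets, SLC16A1 rose and SLC16A3 fell in buffalo, both being lactate carriers of SLC16. SLC16A1, MCT1, which mainly takes lactate up in oxidative fibres, read 236, 778 and 609.8 in buffalo, 95.3, 115 and 105 in yak and 87.1 to 192 (median 141) on the 9 cattle arrays. All buffalo arrays lay above all others, though they ranged widely. The gene was 3.21-fold higher in buffalo than in cattle (log2 fold change 1.68 ± 0.27, adjusted p = 1.76e-04) and 4.14-fold higher than in yak (log2 fold change 2.05 ± 0.33, adjusted p = 2.91e-04). It has 1 probe set on the array. SLC16A3, MCT4, which exports lactate from glycolytic fibres, read 246, 343 and 306 in buffalo, 537, 425 and 356 in yak and 326 to 1443 (median 714) on the 9 cattle arrays. Buffalo lay below yak on every array, though that difference did not pass (log2 fold change -0.53). Buffalo overlapped cattle at intact male 1 alone, and the gene was lower in buffalo than in cattle (log2 fold change -1.24 ± 0.33, adjusted p = 0.00713). One other probe set of SLC16A3 read 112, 127 and 127 in buffalo and passed in the opposite direction (log2 fold change 0.46, adjusted p = 1.46e-04), and another did not pass (log2 fold change -0.18, adjusted p = 0.121). Against yak, the former was also higher in buffalo (log2 fold change 0.51, adjusted p = 4.87e-04), and the latter had 0.24 (adjusted p = 0.109). With the mean of the probe sets of SLC16A3 the call against cattle was lost (adjusted p = 0.0791). Muscle markers moved beside them. MYH7, the slow fibre myosin, was higher in buffalo than in cattle, at 0.56 (adjusted p = 5.89e-04). TNNT3, the fast fibre troponin T, was lower, at -0.78 (adjusted p = 1.96e-04), as were TNNC2, at -0.20 (adjusted p = 0.0438), CKM, at -0.43 (adjusted p = 5.43e-04), and MB, at -0.58 (adjusted p = 8.72e-06). The other 3 of the 8 muscle markers did not pass, and the part of these markers in the SLC16 differences was not tested.

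Of 9 tested genes of lactate and pyruvate handling, 2 were lower and 0 higher both in buffalo and in yak. Over all probe sets 28.4% were lower and 23.0% higher in buffalo, and 15.9% lower and 13.2% higher in yak. BSG, the chaperone that brings MCT1 and MCT4 to the cell surface, was lower in buffalo, at -0.94 (adjusted p = 5.32e-04). LDHA, the lactate dehydrogenase subunit of glycolytic muscle, was lower in buffalo, at -1.02 (adjusted p = 5.01e-05), and in yak, at -0.66 (adjusted p = 0.00366), and the heart-type subunit LDHB was lower in yak, at -1.40 (adjusted p = 5.11e-05).

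Of SLC4, which moves bicarbonate, 5 of 8 genes were tested, counting SLC4A1AP, which is no carrier. In buffalo 2 were higher than in cattle, or 40% called against 51.4% of all probe sets, and in yak 0 passed (against 29.1%). SLC4A7, a sodium and bicarbonate cotransporter that raises the pH of the cell, was the carrier most raised in buffalo. It read 422, 355 and 532 in buffalo, 74.1, 96.3 and 111 in yak and 45.1 to 169 (median 63.7) on the 9 cattle arrays. The lowest buffalo array was above the highest of the other arrays, and the gene was 4.94-fold higher than in cattle (log2 fold change 2.30 ± 0.22, adjusted p = 2.43e-06) and 4.11-fold higher than in yak (log2 fold change 2.04 ± 0.27, adjusted p = 6.45e-05). The other of the 2 was the adaptor SLC4A1AP, at 0.998 (adjusted p = 2.58e-04) against cattle and 1.16 (adjusted p = 5.80e-04) against yak.

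The carriers of carnitine and creatine, which feed fat oxidation and the phosphocreatine store of muscle, moved in opposite directions in buffalo. SLC22A5, the carnitine carrier, read 324, 402 and 780.0 in buffalo, 189.6, 167 and 189 in yak and 114 to 222 (median 201) on the 9 cattle arrays. All buffalo arrays lay above all others, and the gene was 2.52-fold higher than in cattle (log2 fold change 1.33 ± 0.20, adjusted p = 9.10e-05) and 2.45-fold higher than in yak (log2 fold change 1.29 ± 0.24, adjusted p = 8.63e-04). Its dimmer probe set read 163, 168 and 146 in buffalo and 85.1, 97.4 and 99.3 in yak, and also passed (log2 fold change 0.75, adjusted p = 7.65e-05 for buffalo minus cattle). Of 4 tested SLC22 genes, 2 were higher and 1 lower in buffalo than in cattle, or 75% called against 51.4% of all probe sets. SLC6A8, the creatine carrier, read 237, 212 and 230.3 in buffalo, 448, 398 and 424 in yak and 218 to 1187 (median 656) on the 9 cattle arrays. Buffalo overlapped cattle through intact male 1 alone, and the gene was 2.62-fold lower in buffalo than in cattle (log2 fold change -1.39 ± 0.27, adjusted p = 8.30e-04). The dimmer probe set of SLC6A8 was lower as well (log2 fold change -0.31, adjusted p = 0.0163). The other 4 tested SLC6 genes did not pass in any species comparison. For SLC6 as a whole, 20% were called in buffalo minus cattle against 51.4% of all probe sets.

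**Figure D3:**
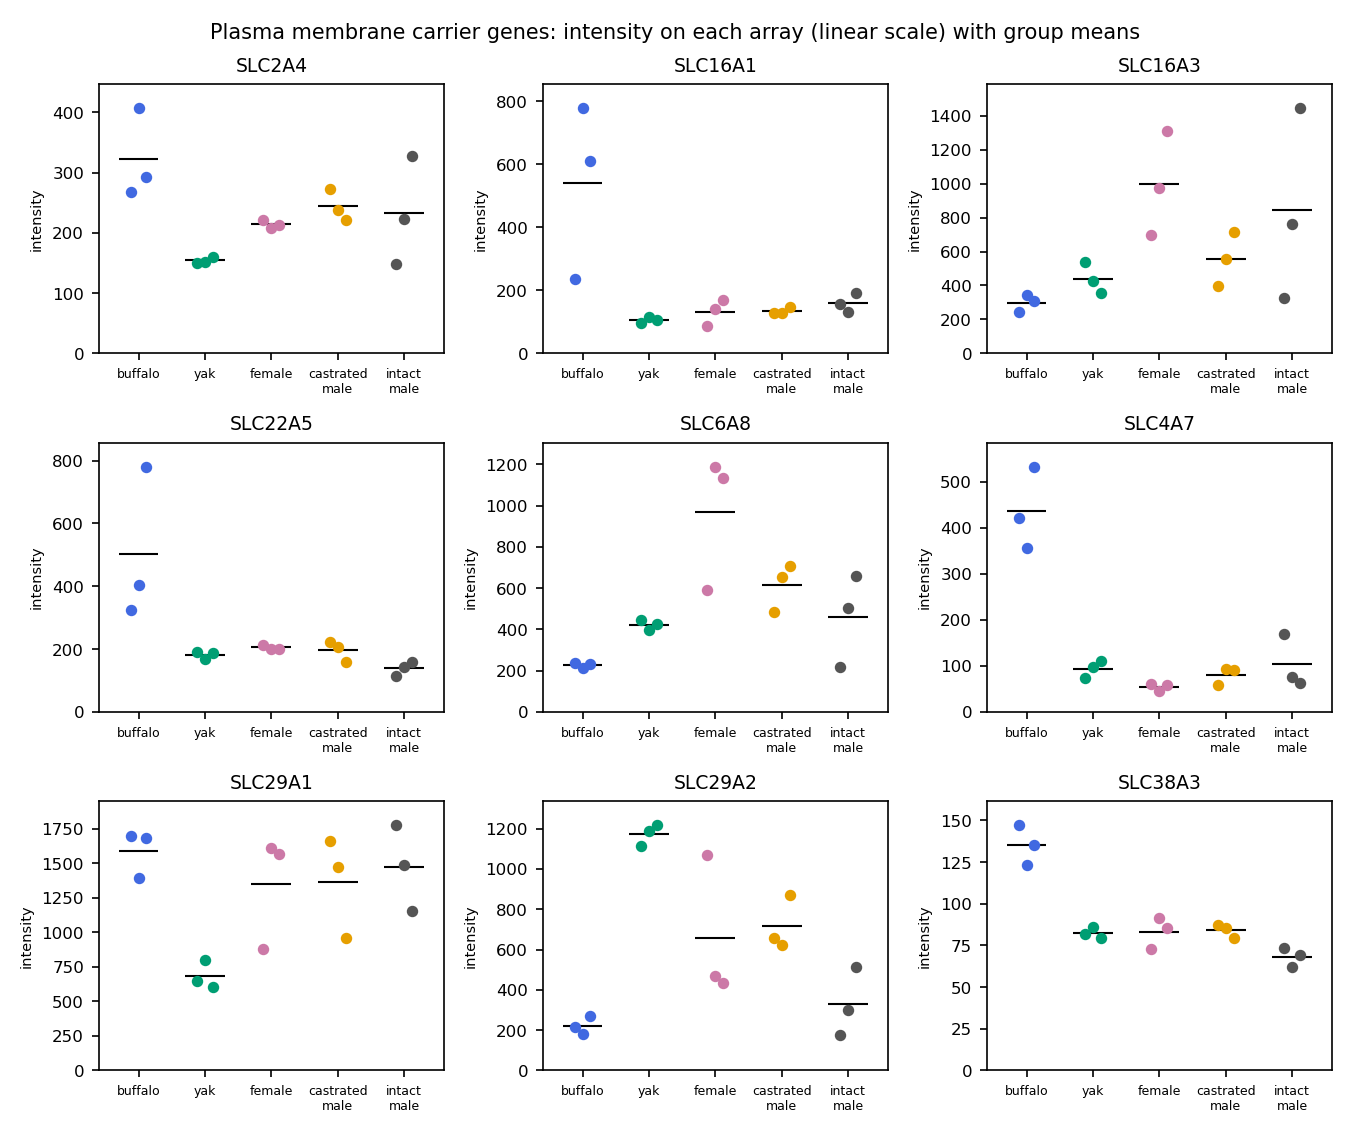
Intensity (linear scale) of 9 plasma membrane carrier genes on each of the 15 arrays, with points for arrays and a bar for the mean of each group of 3. SLC16A1, SLC22A5, SLC4A7 and SLC38A3 are highest in buffalo, SLC29A1 is lowest in yak and SLC29A2 is highest there.

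Among amino acid carriers, SLC1A5 was lower and SLC43A2 higher than in cattle in both buffalo and yak, and SLC3A2 and SLC7A5 were higher in buffalo. SLC1A5, a sodium-coupled carrier of glutamine and other neutral amino acids, read 140.0, 169 and 149 in buffalo, 120.4, 108 and 98.3 in yak and 101 to 539 (median 297) on the 9 cattle arrays. Female 1 was the 1 cattle array within the range of the other species. The gene fell in yak (log2 fold change -1.34 ± 0.26, adjusted p = 0.00246) and in buffalo (log2 fold change -0.90 ± 0.26, adjusted p = 0.0116). Its relative SLC1A4 was lower in yak, at -0.35 (adjusted p = 0.0389), and the glutamate carrier SLC1A3 higher, at 0.32 (adjusted p = 0.0432). SLC1A4 lost its call without intact male 2, any 1 castrated male array, any 1 female array or yak 1 or 2 (adjusted p 0.0506 to 0.15) and under quantile normalisation (adjusted p = 0.102), under median centring (adjusted p = 0.0562), with no filter (adjusted p = 0.0509) and with cattle as castrated males and females (adjusted p = 0.14). SLC1A3 lost its call without intact male 1, castrated male 2, female 1 or 3, yak 1 or 3 or buffalo 3 (adjusted p 0.0534 to 0.219) and with no filter (adjusted p = 0.0544), without the intensity trend (adjusted p = 0.0505) and with cattle as castrated males and females (adjusted p = 0.374).

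SLC3A2, the heavy chain that holds several amino acid exchangers at the surface, read 632, 977 and 781 in buffalo, 503, 494 and 362 in yak and 441 to 622 (median 472) on the 9 cattle arrays. All buffalo arrays were above all others, at log2 fold change 0.62 ± 0.15, adjusted p = 0.00363 against cattle and log2 fold change 0.79 ± 0.18, adjusted p = 0.00383 against yak. Its light chain partner for leucine and other large amino acids, SLC7A5, chosen here for that partnership after its values were seen, read 116, 150.3 and 142 in buffalo, 91.1, 88.8 and 100.1 in yak and 72.6 to 114 (median 90.8) on the 9 cattle arrays. SLC7A5 was higher than in cattle (log2 fold change 0.51 ± 0.09, adjusted p = 5.11e-04) and than in yak (log2 fold change 0.47 ± 0.11, adjusted p = 0.00486). SLC7A1, a carrier of arginine and lysine, was lower in yak than in cattle, at -0.31 (adjusted p = 0.0235), and higher in buffalo than in yak, at 0.61 (adjusted p = 8.19e-04).

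SLC43A2, a further carrier of large neutral amino acids, was higher than in cattle in buffalo, at 0.69 (adjusted p = 0.0103), and in yak, at 0.59 (adjusted p = 0.0396). Its relative SLC43A1 had -0.05 (adjusted p = 0.825) in buffalo and -0.06 (adjusted p = 0.815) in yak. The yak call of SLC7A1 was lost without yak 1 or 2 (adjusted p 0.074 to 0.136) and with cattle as castrated males and females (adjusted p = 0.0617). For SLC43A2 the buffalo call was lost without buffalo 1 or 3 (adjusted p 0.0571 to 0.0831) and the yak call without intact male 2, any 1 castrated male array, female 1 or 3 or yak 1 or 2 (adjusted p 0.05 to 0.181) and with cattle as castrated males and females (adjusted p = 0.0667).

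Of the SLC38 carriers of glutamine and small neutral amino acids, 3 of 5 were tested and 1 passed. That was 33.3% called in buffalo minus cattle against 51.4% of all probe sets, and 0% in yak minus cattle against 29.1%. SLC38A3 read 147, 123 and 135 in buffalo, 82.0, 86.0 and 79.4 in yak and 62.1 to 91.3 (median 79.4) on the 9 cattle arrays. Every buffalo array exceeded every other array, at log2 fold change 0.68 ± 0.08, adjusted p = 7.63e-06 against cattle and log2 fold change 0.62 ± 0.09, adjusted p = 1.68e-04 against yak. Its dimmer probe set read 84.9, 92.6 and 86.1 in buffalo, overlapped cattle and did not pass against them (log2 fold change 0.14, adjusted p = 0.142), but passed against yak (log2 fold change 0.25, adjusted p = 0.0392). SLC38A2, which cells induce when amino acids run short, read 779, 3539.9 and 2848 in buffalo, 1148, 1734 and 1570.2 in yak and 1774 to 3349 (median 2293) on the 9 cattle arrays. The 3 yak lay below all cattle, yet the difference did not pass (log2 fold change -0.65 ± 0.34, adjusted p = 0.175), and buffalo 1 was far below the other buffalo (log2 fold change -0.20 ± 0.34, adjusted p = 0.64). The lysosomal SLC38A7 had 0.01 (adjusted p = 0.974) in buffalo and -0.30 (adjusted p = 0.0734) in yak. Of 18 tested genes of amino acid response and use, 2 were higher and 5 lower in buffalo than in cattle. Shares over all probe sets were 23.0% and 28.4%. In yak, 4 were higher and 2 lower (13.2% and 15.9%). ATF4, the transcription factor of the amino acid response, was lower in buffalo, at -1.15 (adjusted p = 5.50e-04). EIF4EBP1, which restrains translation, was higher in yak, at 1.77 (adjusted p = 9.06e-04).

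The equilibrative nucleoside carriers of SLC29, which let adenosine and other nucleosides cross the membrane, differed between the species. SLC29A1 read 1695, 1396 and 1679.7 in buffalo, 649, 798 and 605 in yak and 879 to 1773 (median 1489.8) on the 9 cattle arrays. All yak arrays lay below all others, and the gene was lower in yak than in cattle (log2 fold change -0.98 ± 0.21, adjusted p = 0.00359) and 2.30-fold higher in buffalo than in yak (log2 fold change 1.20 ± 0.25, adjusted p = 0.00201). Buffalo did not pass against cattle for SLC29A1, at 0.22 (adjusted p = 0.396). SLC29A2 read 216, 179.9 and 271 in buffalo, 1112, 1187 and 1216 in yak and 177 to 1071 (median 512) on the 9 cattle arrays. Here all yak arrays lay above all others. SLC29A2 was higher in yak than in cattle (log2 fold change 1.19 ± 0.29, adjusted p = 0.00823), lower in buffalo than in cattle (log2 fold change -1.15 ± 0.29, adjusted p = 0.00455) and 5.05-fold lower in buffalo than in yak (log2 fold change -2.34 ± 0.35, adjusted p = 1.79e-04). Within cattle it read 1071, 469.9 and 432 in females, 657, 621 and 871 in castrated males and 177, 297 and 512 in intact males, and the yak call was lost with cattle as castrated males and females (adjusted p = 0.0689).

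Zinc carriers of SLC39, which bring zinc into the cytosol, had 10 of 13 genes tested. In buffalo 1 of 10 was higher and 4 lower than in cattle (23.0% and 28.4% over all probe sets), and in yak 0 were higher and 2 lower (13.2% and 15.9%). SLC39A14, which also takes up iron and manganese, read 61.1, 112 and 109 in buffalo, 35.8, 41.0 and 53.3 in yak and 75.2 to 258 (median 129) on the 9 cattle arrays. All yak arrays were below all others (log2 fold change -1.34 ± 0.24, adjusted p = 0.00126 against cattle, and log2 fold change 0.87 ± 0.29, adjusted p = 0.0287 for buffalo minus yak). The buffalo minus yak call was lost without yak 1 or 2 or buffalo 2 or 3 (adjusted p 0.0743 to 0.1) and with 64 added before log2 (adjusted p = 0.0553).

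SLC39A7, which releases zinc from the endoplasmic reticulum, read 71.7, 107 and 144 in buffalo, 178, 171 and 152 in yak and 162 to 360.3 (median 197) on the 9 cattle arrays. SLC39A6 read 53.0, 104 and 87.4 in buffalo, 147, 173 and 133 in yak and 109.8 to 584 (median 186) on the 9 cattle arrays. For both genes every buffalo array lay below every other array. The log2 fold change of buffalo against cattle was -0.995 (adjusted p = 1.08e-04) for SLC39A7 and -1.20 (adjusted p = 0.00134) for SLC39A6. Against yak it was -0.61 (adjusted p = 0.0171) for SLC39A7 and -0.81 (adjusted p = 0.0483) for SLC39A6, the last lost without any 1 castrated male array, female 2 or 3, any 1 yak array or buffalo 1 or 3 (adjusted p 0.0522 to 0.179) and with 64 added before log2 (adjusted p = 0.0831), with no filter (adjusted p = 0.05) and without the intensity trend (adjusted p = 0.0515). SLC39A9 was lower in yak, at -0.29 (adjusted p = 0.0153), lost without yak 1 or 2 (adjusted p 0.0704 to 0.0741) and under quantile normalisation (adjusted p = 0.0554), with the mean of all its probe sets (adjusted p = 0.38) and with cattle as castrated males and females (adjusted p = 0.109), and its dimmer probe set had log2 fold change 0.11, adjusted p = 0.343.

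SLC30A6, which loads zinc into the secretory pathway, read 159, 332 and 323 in buffalo, 223, 175 and 138 in yak and 65.9 to 121 (median 104) on the 9 cattle arrays. All buffalo and yak arrays exceeded all cattle arrays (log2 fold change 1.26 ± 0.21, adjusted p = 2.16e-04 for buffalo and log2 fold change 0.74 ± 0.21, adjusted p = 0.0165 for yak). The yak call was lost without yak 1 or 2 (adjusted p 0.0609 to 0.115). SLC31A1, the copper importer of the cell surface, read 219, 426 and 309.6 in buffalo, 160.2, 171 and 161 in yak and 225 to 845 (median 292) on the 9 cattle arrays. All yak arrays were below all others, at log2 fold change -0.90 ± 0.24, adjusted p = 0.0125 against cattle and log2 fold change 0.84 ± 0.29, adjusted p = 0.0313 for buffalo minus yak. Its relative SLC31A2 was lower in buffalo than in cattle, at -1.001 (adjusted p = 8.10e-04), and than in yak, at -1.16 (adjusted p = 0.00167). The yak call of SLC31A1 was lost without yak 1 (adjusted p = 0.0568) and with cattle as castrated males and females (adjusted p = 0.0948), and its buffalo minus yak call without any 1 yak array or buffalo 2 or 3 (adjusted p 0.0645 to 0.134).

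Of 7 tested genes of metal handling, 2 were higher in buffalo and 3 in yak than in cattle, and 0 were lower. Over all probe sets 23.0% were higher and 28.4% lower in buffalo, and 13.2% higher and 15.9% lower in yak. The metallothionein MT3, which binds zinc and copper, was higher in buffalo, at 1.65 (adjusted p = 8.77e-07), and in yak, at 0.42 (adjusted p = 0.0391). The ferritin chains, which store iron, were higher in 1 species each: FTL in buffalo, at 0.90 (adjusted p = 0.00655), and FTH1 in yak, at 0.29 (adjusted p = 0.0112).

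The nucleotide sugar carriers of SLC35 supply the Golgi and had all 5 genes tested. In buffalo 3 were higher and 0 lower than in cattle, or 60% called against 51.4% of all probe sets. The family median was 0.40, against -0.03 over all probe sets. These counts are by brightest probe set. Dimmer probe sets of SLC35A4 and SLC35A5 were lower in buffalo than in cattle, at log2 fold change -1.20, adjusted p = 1.60e-06 for SLC35A4 and log2 fold change -0.57, adjusted p = 7.04e-04 for SLC35A5, against -0.12 (adjusted p = 0.345) and -0.02 (adjusted p = 0.876) by the brightest. SLC35A3, which carries UDP-N-acetylglucosamine, read 186, 202 and 201 in buffalo, 118, 112 and 119 in yak and 79.7 to 115 (median 99.1) on the 9 cattle arrays. The buffalo arrays lay above all others (log2 fold change 0.89 ± 0.09, adjusted p = 5.65e-06 against cattle and log2 fold change 0.68 ± 0.12, adjusted p = 4.39e-04 against yak). The CMP-sialic acid carrier SLC35A1 had 0.47 (adjusted p = 0.0192) in buffalo and the UDP-galactose carrier SLC35A2 0.40 (adjusted p = 2.25e-04), both past the test against cattle. SLC35A5, thought to carry UDP-sugars, was higher in yak than in cattle, at 0.45 (adjusted p = 0.011), a call lost without yak 2 (adjusted p = 0.077). Its dimmer probe set was higher in yak too, at 0.48 (adjusted p = 0.00574). Dimmer probe sets of SLC35A2, at 1.13 (adjusted p = 7.43e-04), and SLC35A4, at -0.89 (adjusted p = 9.68e-05), also passed in yak against cattle. Their brightest probe sets, at 0.09 and -0.25, did not. SLC37A1, a glucose-6-phosphate carrier of the endoplasmic reticulum, was higher in buffalo than in cattle, at 0.54 (adjusted p = 0.00416), and than in yak, at 0.78 (adjusted p = 0.00198).

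A pair of lysosomal carriers, SLC17A5 and SLC15A4, fell in buffalo. SLC17A5, which exports sialic acid, read 80.7, 70.0 and 71.7 in buffalo, 187, 170.0 and 155 in yak and 106 to 264 (median 165) on the 9 cattle arrays. SLC15A4, which exports histidine and small peptides, read 131, 114 and 111 in buffalo, 448, 288 and 266 in yak and 203 to 326 (median 254) on the 9 cattle arrays. In both, all buffalo arrays lay below all others. SLC17A5 was 2.01-fold lower than in cattle (log2 fold change -1.01 ± 0.11, adjusted p = 6.95e-06), with log2 fold change -1.05 ± 0.13, adjusted p = 4.88e-05 against yak. SLC15A4 was 2.00-fold lower than in cattle (log2 fold change -1.003 ± 0.15, adjusted p = 1.34e-04), with log2 fold change -1.34 ± 0.19, adjusted p = 1.02e-04 against yak. SLC46A3 read 156, 189 and 166 in buffalo, 531, 325 and 319 in yak and 185 to 264 (median 209) on the 9 cattle arrays. It was higher on all yak arrays than on all others (log2 fold change 0.76 ± 0.14, adjusted p = 0.00189 against cattle and log2 fold change -1.09 ± 0.18, adjusted p = 3.02e-04 for buffalo minus yak), and did not pass for buffalo against cattle (log2 fold change -0.33 ± 0.14, adjusted p = 0.0677).

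Among the remaining named genes, the riboflavin carrier SLC52A2 was lower in buffalo than in yak, at -0.73 (adjusted p = 0.00497), with the same direction against cattle, at -0.83 (adjusted p = 3.75e-04). Its dimmer probe sets had log2 fold change -0.09, adjusted p = 0.734 and log2 fold change -0.07, adjusted p = 0.515 for buffalo minus yak. Both passed lower against cattle. In the first of them the intact males, at 533, 321 and 269.9, lay far above the other cattle. It read 90.2, 101 and 104 in buffalo, 101, 123 and 114 in females and 107, 139 and 116 in castrated males. SLC66A3 was lower in buffalo than in yak, at -0.73 (adjusted p = 0.014), a call lost without yak 2 or buffalo 3 (adjusted p 0.063 to 0.0716). SLC8A1, the sodium and calcium exchanger, was higher in yak than in cattle, at 0.33 (adjusted p = 0.03), lost without any 1 yak array (adjusted p 0.0524 to 0.157). SLC66A2 was lower in yak, at -0.37 (adjusted p = 0.0103), lost without yak 2 (adjusted p = 0.0808) and with cattle as castrated males and females (adjusted p = 0.0568). SLC22A23 was higher in yak, at 0.23 (adjusted p = 0.0104), lost without yak 2 (adjusted p = 0.0668) and with cattle as castrated males and females (adjusted p = 0.0552). SLC7A6OS, no carrier itself, was higher in yak than in cattle, at 0.47 (adjusted p = 0.0137), lost without yak 1 (adjusted p = 0.101), and lower in buffalo than in yak, at -0.85 (adjusted p = 7.93e-04).

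Marker genes of other cells differed between the species as well. Fibroblast markers summed to 3768 to 6026 in buffalo and 4344 to 5627 in yak, against 8412 to 10005 in females, 10782 to 11563 in castrated males and 31099.6 to 40656 in intact males, and 7 of 8 were lower than in cattle in both species. Macrophage markers summed to 1067 to 1485 in buffalo and 1585 to 1667 in yak, with 5 of 11 lower in buffalo and 4 of 11 lower in yak. Adipocyte markers summed to 2471 to 5119.7 in buffalo and 786 to 1363 in yak, against 2156 to 4898 in females, 2236 to 4209 in castrated males and 1898 to 5931 in intact males. Of 6 adipocyte markers, 2 were higher and 3 lower in buffalo than in cattle, and 1 was higher and 3 lower in yak. Of 3 tested lymphocyte markers, CD3E and NKG7 were higher in buffalo and none passed in yak. Beside these counts, 23.0% of all probe sets were higher and 28.4% lower in buffalo, and 13.2% higher and 15.9% lower in yak. The part of these markers in the species differences of the carriers was not tested. With cattle taken as castrated males and females alone, 13 solute carrier genes differed in yak in place of 25. The yak count was 13 without yak 1 and 11 without yak 2.

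Between females and intact males, 7 carriers fell and 1 rose by their brightest probe sets. Zinc release, sialic acid export, nucleotide carriage and potassium chloride export were among the functions of the genes that fell. SLC39A7 read 162, 186 and 197 in females and 185, 219 and 180.3 in castrated males, against 360.3, 326 and 264 in intact males. Both other groups lay below every intact male, and the gene fell in females (log2 fold change -0.75 ± 0.14, adjusted p = 0.0274) while castrated males did not pass (log2 fold change -0.65 ± 0.14, adjusted p = 0.062). SLC17A5 read 106, 144 and 121 in females and 153, 189 and 165 in castrated males, against 264, 199 and 191 in intact males. The 3 groups did not overlap, females being lowest (log2 fold change -0.74 ± 0.15, adjusted p = 0.0331 against intact males).

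SLC35A5 read 79.5, 70.2 and 89.1 in females and 72.0, 89.7 and 76.7 in castrated males, against 172, 135 and 109 in intact males. Neither group overlapped the intact males (log2 fold change -0.68 ± 0.15, adjusted p = 0.0389 for females and log2 fold change -0.68 ± 0.15, adjusted p = 0.0633 for castrated males). SLC12A4, a potassium and chloride cotransporter that sets cell volume, read 88.7, 67.8 and 57.8 in females and 77.7, 81.5 and 82.4 in castrated males, against 103, 114 and 119.6 in intact males. The intact males were again highest (log2 fold change -0.56 ± 0.13, adjusted p = 0.0389 for females and log2 fold change -0.41 ± 0.13, adjusted p = 0.129 for castrated males). SLC37A1 read 147, 158 and 145 in females, against 228, 199.8 and 207 in intact males (log2 fold change -0.45 ± 0.11, adjusted p = 0.0461). Its call was lost under quantile normalisation (adjusted p = 0.0614) and under median centring (adjusted p = 0.0588). It was also lost with no filter (adjusted p = 0.0613) and in the fit on all 15 arrays (adjusted p = 0.0821).

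SLC25A6 read 731, 996 and 873 in females and 1021, 1266 and 878 in castrated males, against 2826, 2007 and 1268 in intact males (log2 fold change -1.15 ± 0.28, adjusted p = 0.0467 for females and log2 fold change -0.88 ± 0.28, adjusted p = 0.134 for castrated males). Intact male 1 was the highest array of the 15. The other tested probe sets of SLC25A6 were lower in females too but did not pass (log2 fold change -0.95, adjusted p = 0.0831, and log2 fold change -0.48, adjusted p = 0.116). The female call was lost with the mean of all its probe sets (adjusted p = 0.0572) and with no filter (adjusted p = 0.0513). The gene that rose, SLC16A13, a lactate carrier, read 370.4, 355 and 285 in females and 309, 249.6 and 330.1 in castrated males, against 205, 226 and 210.2 in intact males. It was higher in females (log2 fold change 0.61 ± 0.15, adjusted p = 0.0465), and castrated males, also above every intact male, did not pass (log2 fold change 0.43 ± 0.15, adjusted p = 0.153). The other tested probe set of SLC16A13 went the opposite way and did not pass (log2 fold change -0.27, adjusted p = 0.227 for females). It read 200, 184 and 158 in females, against 257, 200 and 205 in intact males. With the mean of its probe sets the SLC16A13 call was lost (adjusted p = 0.376), as it was with no filter (adjusted p = 0.056).

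A dimmer probe set of the riboflavin carrier SLC52A2 read 101, 123 and 114 in females and 107, 139 and 116 in castrated males, against 533, 321 and 269.9 in intact males. Every intact male lay above every other cattle array, with log2 fold change -1.55, adjusted p = 0.0115 for females and log2 fold change -1.46, adjusted p = 0.0189 for castrated males. The brightest probe set of the gene passed in neither comparison, at 0.09 (adjusted p = 0.813) for females and 0.02 (adjusted p = 0.971) for castrated males. The remaining tested probe set did not pass, at log2 fold change -0.25, adjusted p = 0.106 for females and log2 fold change -0.27, adjusted p = 0.142 for castrated males. The probe sets of SLC52A2 thus disagree within cattle.

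**Figure D4:**
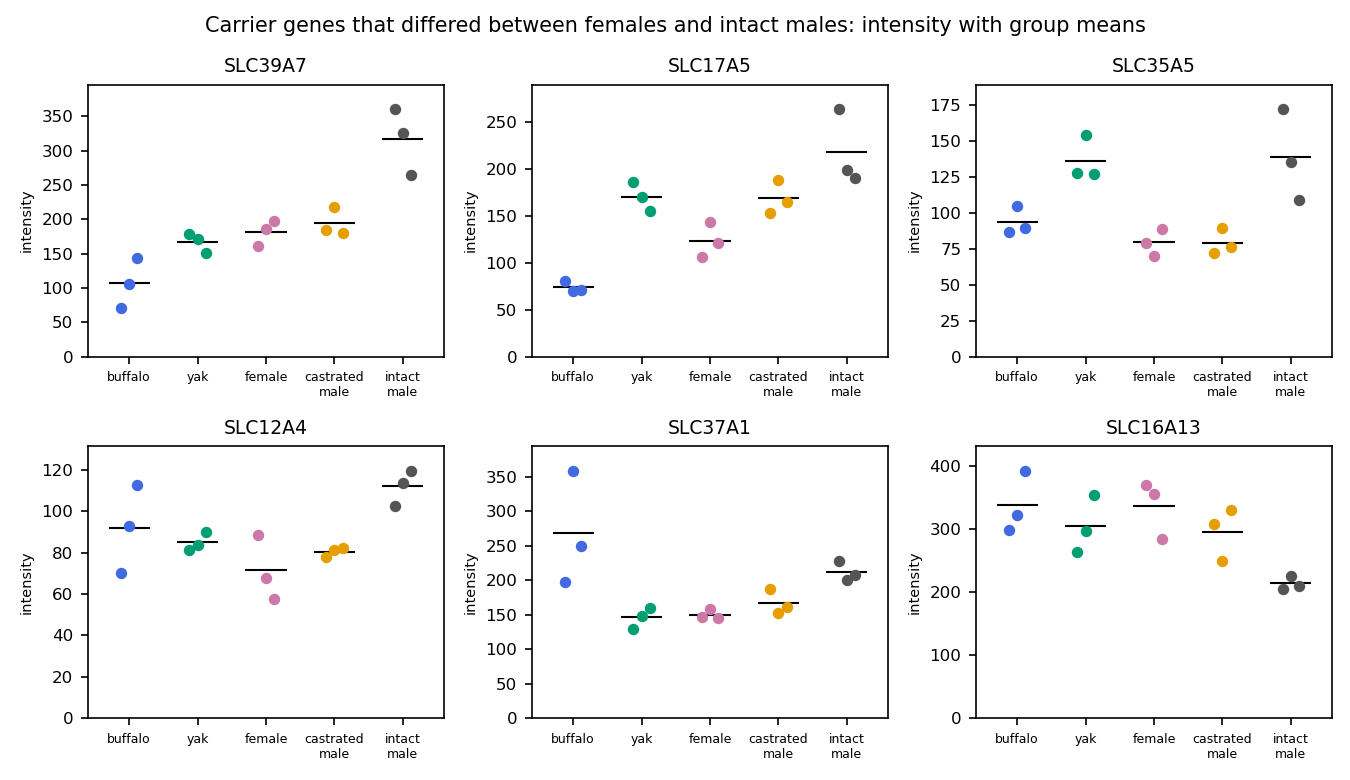
Intensity (linear scale) of 6 carrier genes that differed between females and intact males, on each of the 15 arrays, with points for arrays and a bar for the mean of each group of 3. In SLC39A7, SLC17A5, SLC35A5, SLC12A4 and SLC37A1 the females and castrated males lie below the intact males, and in SLC16A13 they lie above them.

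Beside these differences, macrophage markers summed to 1283 to 2261 in females and 2291 to 3760.3 in castrated males, against 6994 to 36124 in intact males. In females 8 of 11 were lower than in intact males (3.37% over all probe sets). In castrated males 1 of 11 was lower (1.46% called in either direction over all probe sets). Fibroblast markers, whose sums are given above, were lower in 7 of 8 in both groups. None of these marker genes was at 0 in any group, and their part in the carrier differences was not tested.

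None of the 8 calls held with every array left out. SLC39A7 lost its call without intact male 2 or any 1 female array (adjusted p 0.0773 to 0.088). For the other 7 the loss came without at least 1 array of each cattle group, with adjusted p values of up to 0.139. Leaving out intact male 1, 2 or 3 gave 3, 0 and 14 calls in that order. Leaving out castrated male 1, 2 or 3 gave 4, 1 and 2, and leaving out female 1, 2 or 3 gave 1, 0 and 0.

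Between castrated and intact males limma called 0 of 110 carriers by their brightest probe sets, while 21 had an unadjusted p under 0.05. The smallest adjusted p values were those of SLC1A3, which takes up glutamate, SLC39A7 and SLC35A5. SLC1A3 read 129, 94.3 and 122 in castrated males, against 59.7, 74.2 and 74.9 in intact males, without overlap (log2 fold change 0.61 ± 0.13, adjusted p = 0.0542). The carnitine carrier SLC22A5 read 222, 205 and 159.9 in castrated males, against 114, 141 and 160.0 in intact males (log2 fold change 0.45 ± 0.15, adjusted p = 0.143), the groups meeting at about the same value. SLC12A3, a sodium and chloride cotransporter, had log2 fold change -0.31 ± 0.10, adjusted p = 0.142. Without intact male 3, 5 carriers passed. With array weights 20 passed, in the fit on all 15 arrays 3, and with the mean of all probe sets of a gene 1, SLC52A2 (log2 fold change -0.57 ± 0.09, adjusted p = 0.0215).

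Between females and castrated males limma called 0 of 110 carriers and array weights also gave 0, with 5 at an unadjusted p under 0.05 in the unweighted fit. SLC25A33 was the nearest to passing. The next 7 by p were SLC2A5, SLC17A5, SLC7A5, SLC12A2, SLC66A2, SLC3A2 and SLC11A2, with log2 fold changes of -0.35, -0.41, -0.29, 0.64, -0.26, -0.31 and 0.21 in that order. SLC2A5 read 101, 98.8 and 97.7 in females, against 131, 133 and 127 in castrated males, without overlap, and SLC7A5 read 84.1, 78.4 and 72.6 in females, against 114, 94.0 and 91.6 in castrated males.

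Where a called gene had other tested probe sets, these mostly moved the same way. For buffalo minus cattle, 16 of 19 other probe sets of 15 called genes had the same sign, 8 passed in the same direction and 1 in the opposite one. For yak minus cattle, 5 of 6 had the same sign and 3 passed in the same direction. For buffalo minus yak, 11 of 15 had the same sign, 7 passed in the same direction and 1 in the opposite one. For females against intact males, 4 of 5 had the same sign and 1 passed, that of SLC25A33. The opposite calls were those of SLC16A3 and SLC25A6 given above. Genes whose brightest probe set did not pass also had dimmer ones that did, 7 of 15 for buffalo minus cattle, 6 of 28 for yak minus cattle, 3 of 19 for buffalo minus yak, and 1 of 29 and 1 of 34 for females and castrated males against intact males, both SLC52A2. Of all tested probe sets 51.4% passed for buffalo minus cattle, 29.1% for yak minus cattle and 42.2% for buffalo minus yak. The shares for females and castrated males against intact males were 5.50% and 1.46%. For buffalo minus cattle, dimmer probe sets thus passed no more often than all probe sets, beside called and uncalled genes alike.

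**Figure D5:**
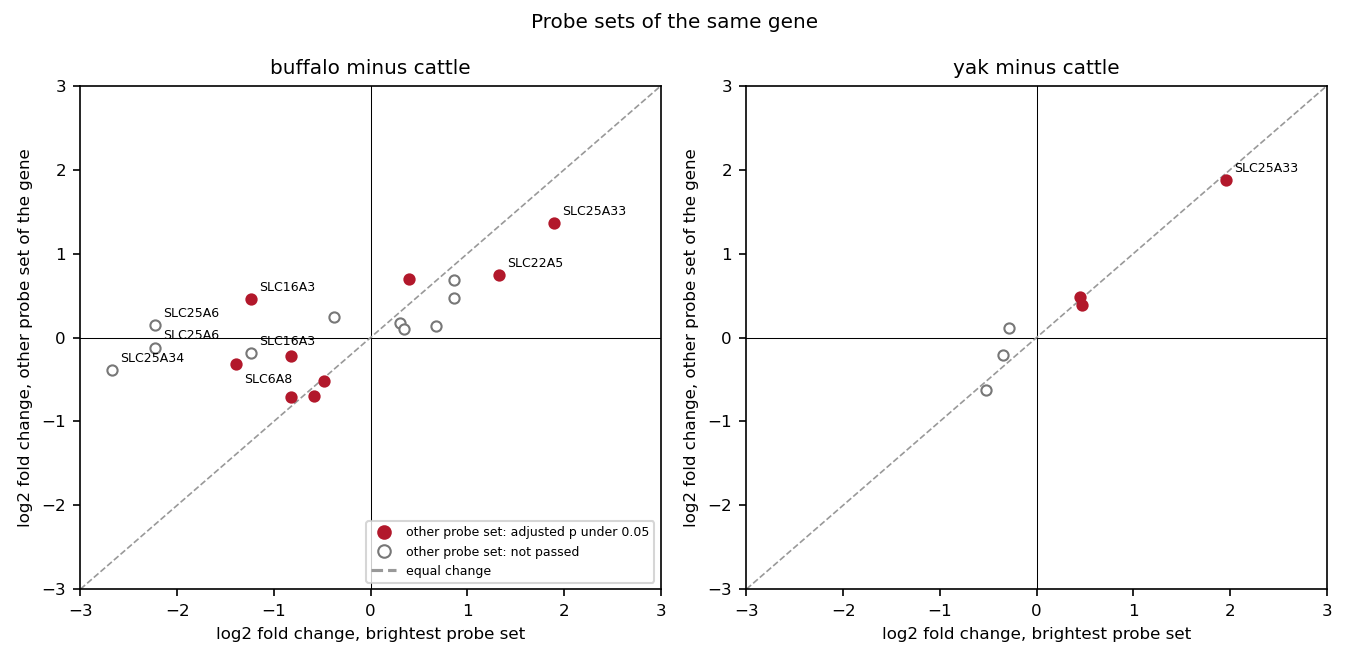
Log2 fold change of every other tested probe set (vertical axis) against that of the brightest probe set of the same gene (horizontal axis), for genes whose brightest probe set passed, with buffalo minus cattle at left and yak minus cattle at right. Filled points passed the test themselves, and the dashed line marks equal change. SLC25A33 and SLC22A5 lie in the upper right, and 1 probe set of SLC16A3 passed above 0 while its brightest lies at -1.24.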

How the data were processed

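Per the labels' protocols, biotinylated cRNA was made from 6 µg of Trizol-extracted total RNA and hybridised to Affymetrix bovine arrays. The authors deposited 1 table of linear intensity values per probe set for 15 arrays. The summary method, background correction and normalisation, not given in the sources used here, are unknown.

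After leaving out 112 control probe sets, 16 was added to each intensity, log2 was taken, and probe sets with a mean above the 40th percentile (14409 of 24016) were tested. Linear models were fitted with limma 3.58.1 in R 4.3.3 (empirical Bayes with an intensity trend) on log2 values, without further scaling, with Benjamini-Hochberg adjustment over all 14409 and a threshold of 0.05. Cattle contrasts used the 9 cattle arrays, and species contrasts all 15. Errors on log2 fold changes are standard errors, and fold changes are on the scale with 16 added, which understates those of dim genes. Scripts were tested on simulated data.

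Symbols came from the platform annotation, and all 164 solute carrier genes matched the ARS-UCD2.0 gene table by Entrez identifier. For each contrast the genes named were every called member if there were 24 or fewer, otherwise the 12 largest changes in each direction among those called. Where under 5 were called, the 8 smallest p values were taken. All tested genes of SLC2, SLC25 and SLC38 were counted. Calls beyond those named for a contrast were not followed gene by gene through the left-out arrays and scalings. Members and lists were chosen with earlier results of these data known. With 3 arrays a group the number of arrays limits precision: an exact test of 3 against 3 cannot go below p = 0.1, and p-values measure the spread between these samples only. Alternatives covered the value added, scaling, filter, probe set choice, trend, array weights, a replicate block and each array left out. The replicate numbers did not pair the samples: same-numbered arrays' deviations correlated at a median of 0.001 (-0.326 to 0.145 over 30 pairs).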

Additional observations from a re-analysis of the deposited data

How the results depend on the processing

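No direction reversed under any alternative. Of 2397 values of named genes under alternatives, 2181 stayed on their side of the threshold, 202 lost their call and 14 gained one, the last all for castrated against intact males. The 24 genes named for buffalo minus cattle kept their calls in every processing alternative in 22 cases and in every left-out array in 21. For buffalo minus yak these counts were 21 and 20 of 24, for yak minus cattle 12 and 8 of 24, and for females against intact males 1 and 0 of 8. The count of carriers called between castrated and intact males, 0, was 1 with the mean of all probe sets of a gene, 20 with array weights and 3 in the fit on all 15 arrays, and 0 to 5 with each array left out in turn. Between females and intact males the count of 8 was 5 with no filter, 2 with a replicate block and 34 with array weights, and 0 to 14 with each array left out. Between yak and cattle the count of 25 was 47 with array weights, 13 with cattle as castrated males and females, and 11 to 29 with each array left out. Between buffalo and cattle the count of 54 of 110 was 87 of 164 with no filter. The array weights stopped short of their convergence tolerance, so counts with them are only approximate. Of the named calls, 12 did not pass with the replicate block, 7 of them for females against intact males, 4 for yak minus cattle (SLC43A2, SLC1A3, SLC2A4 and SLC1A4) and 1 for buffalo minus yak (SLC39A6). The replicate numbers did not pair the samples. The block is nevertheless among the processing alternatives counted above. For females against intact males, SLC12A4, SLC17A5, SLC25A33 and SLC35A5 lost their calls in no other processing alternative. Chosen after seeing the data, leaving out SLC4A1AP and SLC7A6OS gave 52 of 108 carriers called between buffalo and cattle and 24 of 108 between yak and cattle, and the alternatives applied to the test for any difference among the 5 groups gave 44 to 92 called against 64. The cause of these shifts was not tested, beyond the fewer arrays or more genes an alternative itself brings. The dimmest genes lie near the filter, where signal over background limits the fold change.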
